A study of Mus musculus with 13 samples.

Results

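The genes described here are 8 known transcriptional targets of interleukin-17A (IL-17A) in epithelial cells, namely *Lcn2*, *Saa3*, *C3*, *Il1a*, *Nfkbiz*, *Zc3h12a*, *Ptgs2* and *Steap4*. They were selected by name, with earlier measurements of these libraries in view: *Lcn2*, *Il1a* and *Nfkbiz* were chosen knowing that they were higher with DOX+IL-17A than with DOX. All 8 were present among the 13222 genes of the table, and 7 passed the filter on low reads for the test across all genes. 4T1-Thy1.1 cells, a mouse mammary carcinoma line carrying a Thy1.1 transgene, were grown to 25% confluency in 12-well plates before treatment and sequenced as bulk RNA. The control group (n = 3) received neither agent. The DOX group (n = 4) received doxorubicin, a DNA-damaging chemotherapeutic, at 200 ng/mL, the IL-17A group (n = 3) recombinant mouse IL-17A at 25 ng/mL, and the DOX+IL-17A group (n = 3) both at these doses, each for 48 hours. The labels do not say whether replicates were separate cultures. The study's methods speak in general of biological replicates, without saying how those of the sequencing were made, so that p-values are read here as measuring the spread between these libraries. Reads on listed genes ranged from 4445592 to 16930600 between libraries. Levels are CPM, reads scaled to a common library size after trimmed mean of M-values (TMM) correction. The kit reads the 3' end of each transcript, so that a level does not depend on transcript length and may be set beside that of another gene.

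IL-17A binds a receptor made of IL-17RA and IL-17RC, which recruits the adaptor Act1 and TRAF6 and activates NF-kB, MAP kinases and C/EBP transcription factors. It is a weak inducer of transcription by itself, and much of its action in epithelium comes from stabilizing the messages of inflammatory genes and from acting together with other stimuli such as tumor necrosis factor. Its epithelial targets include antimicrobial and acute phase proteins, cytokines, and regulators that amplify or end the response.

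The cell type of the label was checked first. All 8 epithelial markers written down for this purpose (*Epcam*, *Krt8*, *Krt18*, *Krt7*, *Cdh1*, *Cldn4*, *Cldn7* and *Krt14*) were listed, with *Krt7* the most abundant by its mean over the 13 libraries (288 to 693), the ranking used for each list here. *Epcam*, at 733, was above it in control 1. Their summed level was 2353, 1836 and 2044 in control 1, 3 and 5, between 1093 and 1171 in the 4 DOX libraries, between 934 and 1203 with DOX+IL-17A, and between 1547 and 1943 with IL-17A. The markers did not all follow the sum: *Epcam*, *Krt7*, *Krt8* and *Krt18* were lower in each DOX library than in each control, *Krt14* was higher (52.0 to 122 against 38.6 to 43.6), and *Cldn4*, *Cldn7* and *Cdh1* overlapped. In bulk RNA, a smaller share of cells of a type and less RNA of these genes in the same cells cannot be told apart. Of the macrophage and monocyte markers 4 of 8 were listed, with *Cd14* highest by that mean but below *Csf1r* in all 3 controls and in DOX 1, 3 and 4. They summed to 19.8, 20.2 and 19.9 in control 1, 3 and 5, to 13.6, 19.6 and 12.96 in IL-17A 2, 3 and 5, to 49.5, 49.8, 25.6 and 28.0 in DOX 1, 2, 3 and 4, and to 56.8, 42.2 and 32.6 in DOX+IL-17A 2, 3 and 5. In this sum all libraries with DOX were above all libraries without it, but the 2 genes with the highest means in it differed. *Cd14* was at 1.18 to 5.66 in control, 7.06 to 12.3 with IL-17A, 7.55 to 24.9 with DOX and 19.8 to 44.2 with DOX+IL-17A. *Csf1r* was at 14.1 to 16.7 in control, 2.14 to 7.07 with IL-17A, 16.6 to 35.0 with DOX and 2.48 to 9.55 with DOX+IL-17A, below every control in both groups with IL-17A. The defining genes *Lyz2*, *Tyrobp*, *Fcer1g* and *Adgre1* were not listed in the table.

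2 libraries stood apart in markers of other cell types. The 8 skeletal muscle markers, all of them listed, summed to 257 in DOX 1, where *Myh4*, with the highest mean of them, was at 80.9. They summed to 40.1, 16.1 and 4.83 in control 1, 3 and 5, to 30.4, 6.43 and 4.83 in DOX 2, 3 and 4, and to between 4.72 and 12.1 with IL-17A or DOX+IL-17A. The 3 listed of 5 red blood cell markers (highest mean *Hba-a2*) summed to 66.5 in DOX 1 and to 14.4 or less in each other library. The 5 listed of 7 fibroblast markers summed to 143 in control 1 and to between 27.9 and 78.1 elsewhere. *Col1a1* had the highest mean of them, but *Pdgfra* was above it in control 3 and 5, DOX 4, DOX+IL-17A 5 and all IL-17A libraries. Of the neutrophil markers 3 of 9 were listed (highest mean *Cxcr2*), with sums of at most 6.84. The 2 listed of 8 T cell markers (highest mean *Trac*) summed to between 6.54 and 35.0. Of the hepatocyte markers 1 of 7 was listed (*Alb*, at most 2.25), and of the adipocyte markers 1 of 5 (*Fabp4*, at most 4.62). The defining T cell genes *Cd3d*, *Cd3e* and *Cd3g* and the neutrophil genes *Elane*, *Mpo* and *Ly6g* were not listed in the table.

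Promoters are shown because all 8 members were higher in each DOX+IL-17A library than in any control, although their levels in the other groups differed. Members were picked partly on these DOX+IL-17A libraries, and the share of all genes with such a separation was not counted. Nothing further is therefore read from this count. RefSeq promoters (GRCm38.p6, 250 bases before to 50 bases after the transcription start) were matched for 7 of the 8 genes; *Nfkbiz* was the other. Both strands were searched for the kappaB consensus, for the AP-1 type motif TGANTCA, for the wide C/EBP type motif TTNNGNAA and for the narrower TTGCNNAA, whose matches all lie within matches of the wide one. The wide motif was present in 7 of 7 promoters, against 40.7% of all 32851 promoters of this length, and the narrower one in 5 of 7, against 10.8%. The narrower motif was added after the matches of the wide one had been seen. The kappaB consensus was found in 1 of 7 (*Steap4*; 8.46% of all promoters) and TGANTCA in 1 of 7 (*Il1a*; 7.81%). The promoters of the 4 secreted members and of *Ptgs2* follow, 5′ to 3′ on the strand of the gene, with every match in capitals. They lie at chr2:32387690-32387989 on the minus strand for *Lcn2*, chr7:46715627-46715926 on the minus strand for *Saa3*, chr17:57228087-57228386 on the minus strand for *C3*, chr2:129309923-129310222 on the minus strand for *Il1a* and chr1:150099781-150100080 on the plus strand for *Ptgs2*.
Lcn2: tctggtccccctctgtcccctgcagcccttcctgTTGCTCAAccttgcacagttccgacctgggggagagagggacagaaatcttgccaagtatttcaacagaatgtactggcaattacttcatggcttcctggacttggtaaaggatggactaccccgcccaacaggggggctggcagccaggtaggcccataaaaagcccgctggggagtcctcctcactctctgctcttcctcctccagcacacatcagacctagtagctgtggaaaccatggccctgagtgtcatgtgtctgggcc
Saa3: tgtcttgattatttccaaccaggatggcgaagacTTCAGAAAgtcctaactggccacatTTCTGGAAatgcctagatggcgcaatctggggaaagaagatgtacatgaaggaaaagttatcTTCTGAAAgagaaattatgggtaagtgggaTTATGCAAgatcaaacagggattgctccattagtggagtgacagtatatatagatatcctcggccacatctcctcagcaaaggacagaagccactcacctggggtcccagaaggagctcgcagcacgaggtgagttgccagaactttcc
C3: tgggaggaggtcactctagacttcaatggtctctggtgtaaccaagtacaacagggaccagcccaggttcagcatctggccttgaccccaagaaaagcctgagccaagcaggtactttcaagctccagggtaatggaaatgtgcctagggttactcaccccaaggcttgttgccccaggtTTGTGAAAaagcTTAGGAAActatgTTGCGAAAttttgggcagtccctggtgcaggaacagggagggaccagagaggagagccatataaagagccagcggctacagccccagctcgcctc
Il1a: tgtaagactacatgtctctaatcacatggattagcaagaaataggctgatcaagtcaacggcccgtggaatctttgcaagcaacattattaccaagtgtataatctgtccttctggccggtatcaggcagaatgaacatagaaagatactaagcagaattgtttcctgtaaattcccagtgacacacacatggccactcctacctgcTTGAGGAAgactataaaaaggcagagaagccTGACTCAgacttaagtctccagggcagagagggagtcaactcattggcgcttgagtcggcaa
Ptgs2: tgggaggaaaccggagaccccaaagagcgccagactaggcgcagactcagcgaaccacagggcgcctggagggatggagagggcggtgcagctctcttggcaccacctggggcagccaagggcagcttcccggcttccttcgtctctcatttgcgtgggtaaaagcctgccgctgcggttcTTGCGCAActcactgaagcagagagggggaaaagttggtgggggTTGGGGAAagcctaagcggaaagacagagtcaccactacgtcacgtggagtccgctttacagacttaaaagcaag
Counted in bases from the transcription start, the match to the narrower motif was TTGCTCAA at -216 to -209 in *Lcn2*. It was TTATGCAA at -99 to -92 in *Saa3*, TTGCGAAA at -45 to -38 in *C3* and TTGCGCAA at -69 to -62 in *Ptgs2*. In *Steap4*, which is not printed, a kappaB match overlaps a match to the wide C/EBP type motif. The promoter of *Il1a* held the AP-1 type match TGACTCA at -12 to -6 and no match to the narrower C/EBP type motif. For *Lcn2* the whole RefSeq window lies inside the gene as GENCODE gives it, with its end at 32388252 on the minus strand. The RefSeq start used for *Lcn2* is thus not the outermost GENCODE start, and the bases before that one were not searched. A match describes the letters of the window used and does not show that a factor binds there.

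**Figure D1:**
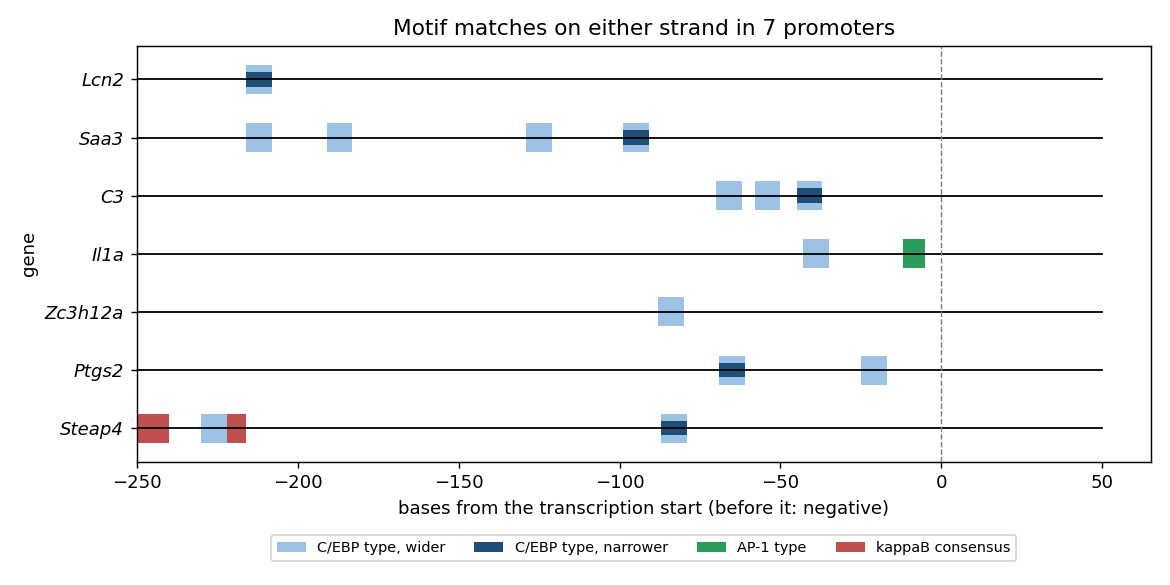
Motif matches on either strand in the promoters of 7 members; the x axis gives bases from the transcription start and each block is a match. The wide C/EBP type motif is present in all 7, the narrower one in 5.

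The first group of members encodes secreted effectors. *Lcn2* (chromosome 2, 32384633 to 32388252, minus strand, GENCODE vM21) encodes lipocalin 2, which withholds iron from bacteria by binding their siderophores. Its level was 12.9, 7.98 and 7.54 in control 1, 3 and 5, and 84.7, 25.3 and 24.3 in IL-17A 2, 3 and 5. All 3 IL-17A libraries lay above all 3 controls. In DOX 1, 2, 3 and 4 its level was 12.5, 19.7, 0.559 and 0.984. The DOX group thus spanned the controls, with DOX 3 and DOX 4 below each of them on 4 and 11 reads. With DOX+IL-17A the level was 150.3, 66.2 and 47.1 in replicates 2, 3 and 5, above each DOX and each control library but overlapping IL-17A alone.

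*Saa3* (chromosome 7, 46711998 to 46715700, minus strand) encodes serum amyloid A3, an acute phase protein made in peripheral tissues. Its level was 1.18, 0.0609 and 0.118 in control 1, 3 and 5, from 7, 1 and 1 reads, and 5.52, 0.472 and 0.164 in IL-17A 2, 3 and 5, from 49, 3 and 2 reads. These groups overlapped, and IL-17A 2 alone stood out. In DOX 1, 2, 3 and 4 the level was 11.8, 9.63, 0.839 and 1.88, with DOX 3 below control 1. With DOX+IL-17A it was 138, 37.8 and 74.2 in replicates 2, 3 and 5. The lowest of these was above every library of the other groups, among which DOX 1 and DOX 2 were the highest.

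*C3* (chromosome 17, 57203970 to 57228136, minus strand) encodes complement component 3, the protein on which the complement cascades converge. Its level was 135, 74.6 and 114 in the controls, 198, 156 and 267 with IL-17A, 301, 269, 203 and 211 with DOX, and 463, 433 and 631 with DOX+IL-17A, in the order of the replicate numbers. No control library reached the level of any treated library, and each DOX+IL-17A library was above all others. The IL-17A and DOX groups overlapped each other. *C3* was the most abundant of the 8 genes by mean in every group, with a mean of 508.9 ± 106.6 (SD, n = 3) with DOX+IL-17A. In IL-17A 3, *Nfkbiz* at 192 was above *C3* at 156.

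*Il1a* (chromosome 2, 129299610 to 129309972, minus strand) encodes interleukin-1 alpha, a cytokine that epithelial cells also release on damage. Its level was 6.26, 5.85 and 6.60 in control 1, 3 and 5, and 57.0, 54.1 and 24.5 in IL-17A 2, 3 and 5. In DOX 1, 2, 3 and 4 it was 32.9, 42.6, 7.13 and 14.5. All 4 DOX and all 3 IL-17A libraries lay above the controls, DOX 3 by a small margin. With DOX+IL-17A the level was 162, 149 and 60.4 in replicates 2, 3 and 5, above every library of the other groups. The antisense gene *Gm14023* shares exon bases with *Il1a*; its level was at most 4.87, and whether the counting used strand was not given in the sources used here.

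The second group regulates the response. *Nfkbiz* (chromosome 16, 55811375 to 55838899, minus strand) encodes IkB-zeta, a nuclear cofactor of NF-kB needed for a set of secondary IL-17A targets, *Lcn2* among them. Its level was 106, 52.0 and 41.1 in control 1, 3 and 5, and 148, 192 and 199 in IL-17A 2, 3 and 5. In DOX 1, 2, 3 and 4 it was 95.1, 133, 42.6 and 34.9, which spanned the control range. With DOX+IL-17A it was 257, 301 and 235 in replicates 2, 3 and 5. The 6 libraries that received IL-17A were the 6 highest of the 13.

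*Zc3h12a* (chromosome 4, 125118423 to 125127840, minus strand) encodes Regnase-1, an endoribonuclease that degrades inflammatory messages and so restrains IL-17A signaling. Its level was 15.6, 12.1 and 8.37 in control 1, 3 and 5, and 67.6, 52.5 and 33.5 in IL-17A 2, 3 and 5. In DOX 1, 2, 3 and 4 it was 28.1, 33.8, 10.3 and 14.4, and with DOX+IL-17A 60.3, 76.6 and 83.9 in replicates 2, 3 and 5. The controls overlapped DOX 3 and DOX 4 and lay below the other DOX libraries. The DOX+IL-17A and IL-17A groups overlapped each other and both lay above the controls.

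The last group encodes enzymes. *Ptgs2* (chromosome 1, 150100031 to 150108227, plus strand) encodes cyclooxygenase 2, the inducible enzyme of prostaglandin synthesis. Its level was 37.7, 25.1 and 22.7 in control 1, 3 and 5, 42.0, 39.8 and 17.4 in IL-17A 2, 3 and 5, and 40.6, 121, 37.6 and 31.3 in DOX 1, 2, 3 and 4. These 3 groups overlapped, and DOX 2 stood apart from the other DOX libraries. With DOX+IL-17A it was 93.0, 121 and 48.0 in replicates 2, 3 and 5, above all control and IL-17A libraries but not above DOX 2.

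*Steap4* (chromosome 5, 7960457 to 7982213, plus strand) encodes a metalloreductase of iron and copper. Its mean was below the mean level of 3 reads in all groups but DOX+IL-17A. By library this did not hold throughout, since control 3 was above that level and DOX+IL-17A 2 close to it. *Steap4* had 1, 8 and 0 reads in control 1, 3 and 5, and 0 reads in each of the 4 DOX and 3 IL-17A libraries. It had 4, 35 and 19 reads in DOX+IL-17A 2, 3 and 5, for levels of 0.818, 3.48 and 1.19. The mean level with DOX+IL-17A was at least 5.81-fold higher than with DOX and at least 5.19-fold higher than with IL-17A, taking 3 reads in each library, averaged over the group, as the floor for a count of 0. Without DOX+IL-17A 3, the highest library, these bounds were 3.19-fold and 2.85-fold. Floors cover counting error only. *Steap4* was outside the test across all genes. IL-17A against control gave p = 0.4 and DOX against control p = 0.286 by 2-sided exact permutation tests, which can reach no lower than 0.1 and 0.0571 in groups of these sizes.

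**Figure D2:**
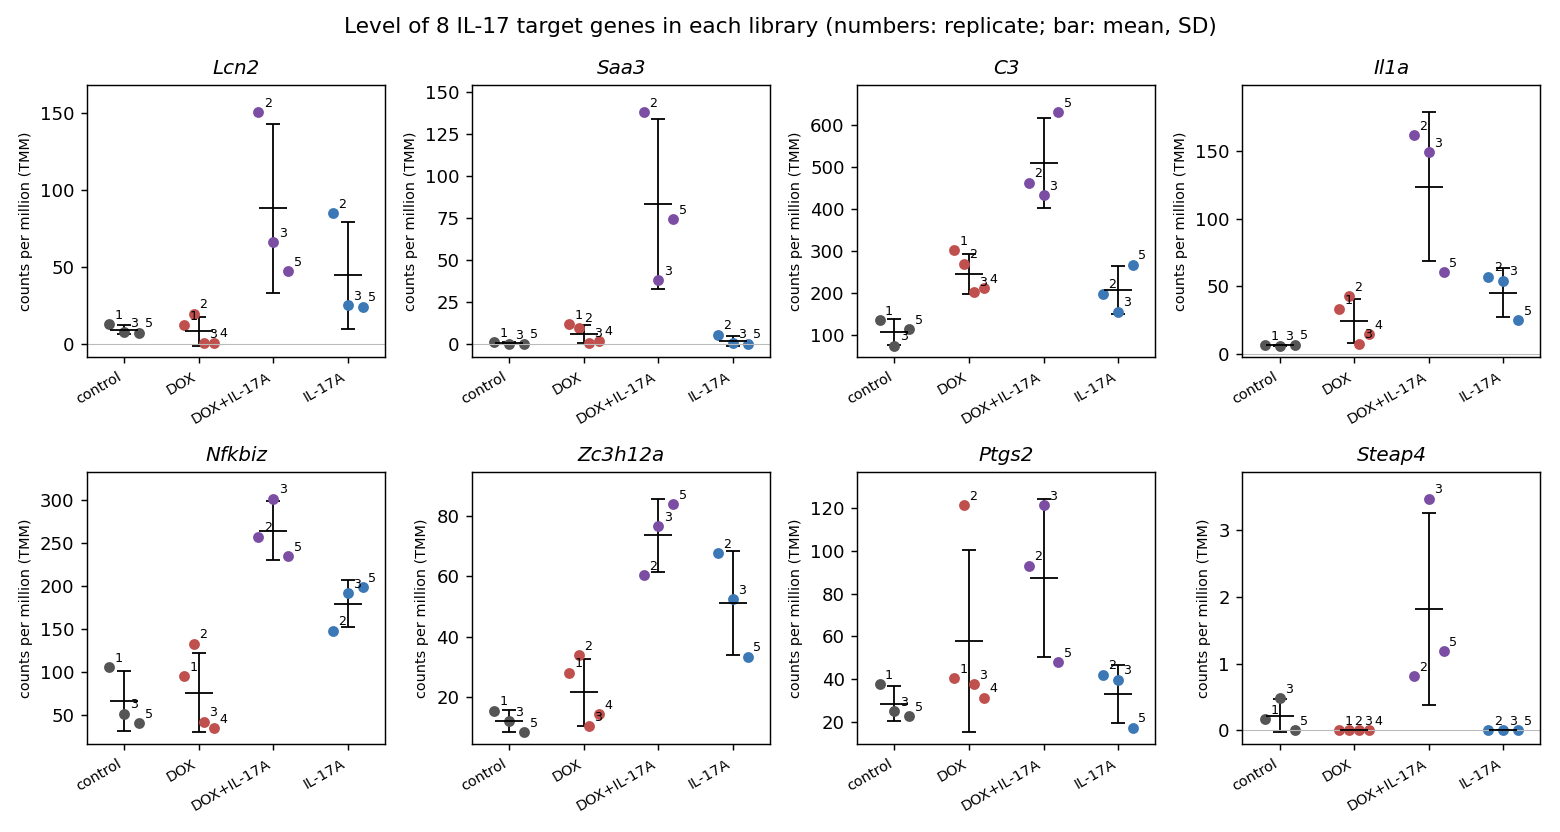
Level of each of the 8 genes in the 13 libraries, in CPM after TMM scaling. Points are libraries with their replicate number, and bars give the mean and SD of a group. The DOX+IL-17A libraries are above every control library for all 8 genes, which the choice of members partly fixes.

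By group mean, the order from low to high was control, DOX, IL-17A, DOX+IL-17A for *Il1a*, *Nfkbiz* and *Zc3h12a*, and control, IL-17A, DOX, DOX+IL-17A for *Saa3*, *C3* and *Ptgs2*. For *Lcn2* the DOX mean of 8.43 ± 9.33 (SD, n = 4) was next to the control mean of 9.46 ± 2.95 (SD, n = 3), and the libraries of these neighbours overlapped, as did those of IL-17A and DOX+IL-17A. Each pair of neighbours in the order overlapped for *Zc3h12a* and for *Ptgs2*. Neighbours also overlapped for IL-17A and DOX in *C3*, *Il1a* and *Saa3*, for control and IL-17A in *Saa3*, and for control and DOX in *Nfkbiz*, so that the order of these groups is not resolved. For *Steap4* the mean was 0 with DOX and with IL-17A, and the control and DOX+IL-17A libraries did not overlap.

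The DOX libraries differed among themselves in the same way for each member with reads. DOX 1 and DOX 2 were both above DOX 3 and DOX 4 in 7 of 7 members, against 2820 of all 12319 tested genes (22.9%) and 23 of 56 other IL-17 pathway genes; this order was noticed in the members' own values. The summed macrophage and monocyte markers were also higher in DOX 1 and DOX 2 (49.5 and 49.8) than in DOX 3 and DOX 4 (25.6 and 28.0), and the muscle markers were highest in DOX 1. The part of these genes in the order of the DOX libraries was not tested.

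**Figure D3:**
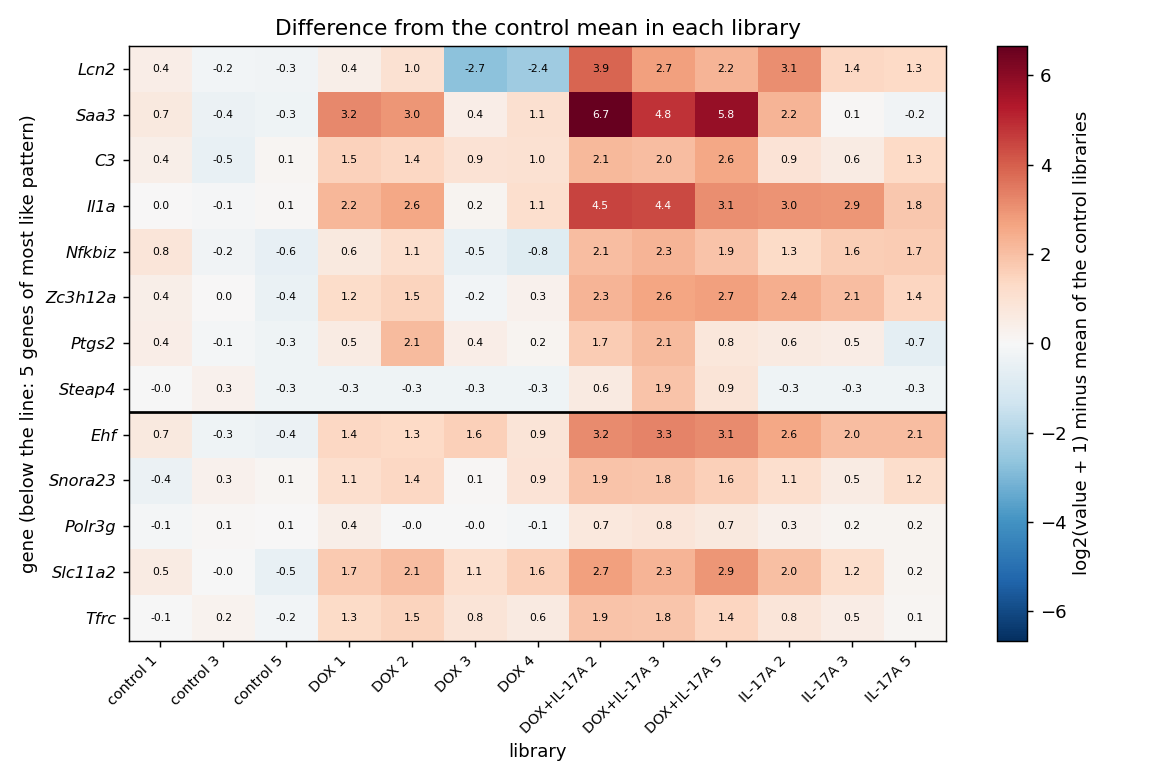
Difference of log2(value + 1) from the mean of the control libraries, for the 8 members and, below the line, the 5 genes with the most like pattern. Columns are libraries, and DOX 3 and DOX 4 are below the controls for *Lcn2*.

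The control and IL-17A libraries are not part of the contrast on which *Lcn2*, *Il1a* and *Nfkbiz* were known. The fit takes its spread from all 13 libraries, however, and the members were chosen with earlier results known, so that the counts below are not independent support. Tests used limma on log2(value + 1) over the 12319 genes, and a call required a fold change above 2 together with an adjusted p under 0.05; a fold change on this scale understates the change of low genes. With IL-17A, 0 of 7 members were called higher against 0.00812% of all genes tested, the latter being 1 gene. At an unadjusted p under 0.05, 5 of 7 members were higher (*Lcn2*, *C3*, *Il1a*, *Nfkbiz* and *Zc3h12a*), against 1.88% of all genes. The same 5 had all IL-17A libraries above all control libraries, against 3.17% of all genes. The log2 fold change was 2.58 for *Il1a* (standard error 0.54, adjusted p = 0.260) and 1.99 for *Zc3h12a* (standard error 0.39, adjusted p = 0.254), the lowest adjusted p-values of the members. It was 1.92 for *Lcn2* (0.82), 1.53 for *Nfkbiz* (0.42) and 0.94 for *C3* (0.26), and 0.70 for *Saa3* (0.76) and 0.14 for *Ptgs2* (0.47), with standard errors in parentheses. For these 5 genes the adjusted p was 0.959 or above. The tools differed: voom and edgeR on the recovered reads called 0 members (0% of all genes by either), whereas DESeq2 called 2 of 7, *Il1a* (adjusted p = 0.000423) and *Zc3h12a* (adjusted p = 0.00247), against 0.0894% of all genes. Over the alternatives other than leaving out a library, the adjusted p lay between 0.000423 and 0.999 for *Il1a* and between 0.00247 and 0.993 for *Zc3h12a*. Of the macrophage and monocyte markers, *Cd14* was above all controls with IL-17A (7.06 to 12.3 against 1.18 to 5.66). *Csf1r* was below all controls (2.14 to 7.07 against 14.1 to 16.7), and *Ptprc* and *Itgam* overlapped. The part of these markers in the differences with IL-17A was not tested.

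Of the members, 2 rose with DOX alone. DOX against control shares the DOX libraries with the contrast on which 3 members were known. Of the 7 members, 2 were called higher and 0 lower, against 9.15% and 6.18% of all genes tested. *C3* rose by 1.21 on the log2 scale (standard error 0.25, adjusted p = 0.00355) and was higher in 4 of 4 DOX libraries than in any control. *Il1a* rose by 1.52 (standard error 0.50, adjusted p = 0.0408), also higher in 4 of 4. The groups did not overlap in these 2 members, against 18.5% of all genes. *Saa3* was higher by 1.91 (standard error 0.71, adjusted p = 0.0657) and did not pass. The differences were 0.80 for *Ptgs2*, 0.69 for *Zc3h12a*, 0.11 for *Nfkbiz* and -0.91 for *Lcn2*, with adjusted p-values from 0.188 to 0.870. The call of *Il1a* was lost when any 1 of 8 libraries was omitted (control 1, 3 or 5, DOX 1, 2 or 4, DOX+IL-17A 3, or IL-17A 3), with adjusted p-values from 0.0507 without IL-17A 3 to 0.117 without DOX 2. It was also lost with voom (0.101), with only the 2 groups in the fit (0.0686) and with the replicate number as a block (0.102). Its adjusted p over alternatives other than omitting a library lay between 0.00124 and 0.102. *Saa3* passed with edgeR (0.0307), DESeq2 (0.0223), a pseudocount of 0.1 (0.0374) and the replicate block (0.0331). *Saa3* also passed with limma when control 1 (0.0459), DOX 3 (0.0324) or IL-17A 2 (0.0456) was omitted. Its adjusted p over the same alternatives as for *Il1a* lay between 0.0223 and 0.130. The call of *C3* was lost without control 3, where its log2 fold change was 0.97 (adjusted p = 0.0146). Without DOX 1, the library with the highest muscle markers, *C3* was still called. The summed macrophage and monocyte markers were higher with DOX too, at 25.6 to 49.8 against 19.8 to 20.2 in control. Among them only *Cd14* was above all controls in each DOX library, and *Csf1r*, *Ptprc* and *Itgam* overlapped. The summed epithelial markers were lower, at 1093 to 1171 against 1836 to 2353 in control, although *Krt14* among them was higher. The part of either set of markers in these differences was not tested. With scaling by library size alone the median over all genes went from 0.09 to 0.24 on the log2 scale and the calls from 1127 higher and 761 lower to 1516 and 488; none of the 7 members changed sign.

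**Figure D4:**
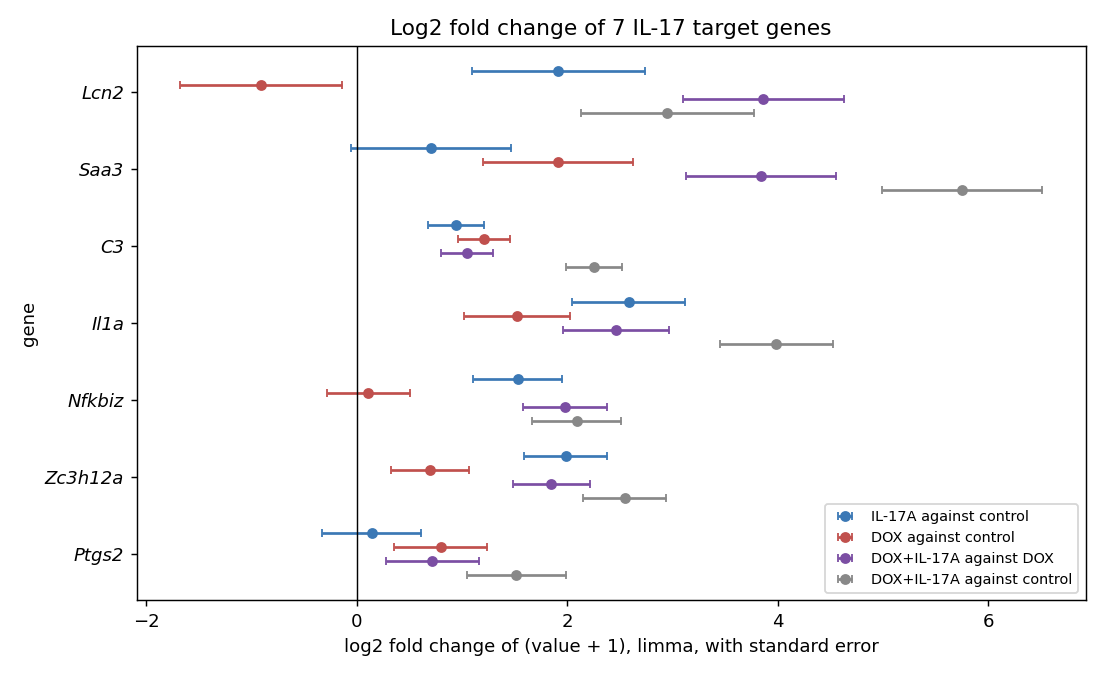
Log2 fold change on the log2(value + 1) scale with its standard error for the 7 members in the fit; comparisons with control share the control libraries, and DOX+IL-17A against DOX shares the DOX libraries with DOX against control. *Lcn2* and *Saa3* have the largest differences between DOX+IL-17A and DOX, 3.86 and 3.84.

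The comparison of DOX+IL-17A with DOX is given as a description, since members were picked on it. The log2 fold change was 3.86 for *Lcn2* (standard error 0.77), 3.84 for *Saa3* (0.71), 2.46 for *Il1a* (0.50), 1.98 for *Nfkbiz* (0.40), 1.85 for *Zc3h12a* (0.37), 1.05 for *C3* (0.25) and 0.72 for *Ptgs2* (0.44). The DOX+IL-17A libraries were above all DOX libraries for 6 of these 7 and for *Steap4*, against 4.66% of all genes tested, from which nothing is read because the choice fixes part of it. *Ptgs2* was the member whose groups overlapped. Against control, a comparison that uses the same DOX+IL-17A libraries, the log2 fold change was 5.75 for *Saa3*, 3.98 for *Il1a*, 2.95 for *Lcn2*, 2.54 for *Zc3h12a*, 2.25 for *C3*, 2.09 for *Nfkbiz* and 1.52 for *Ptgs2*. Of the macrophage and monocyte markers, *Cd14* and *Ptprc* were above all controls with DOX+IL-17A. *Csf1r* was below all of them, and *Itgam* overlapped. *Ptprc* was at 2.45 to 3.57 with DOX+IL-17A, against 0.0609 to 1.52 in control and 0.644 to 1.42 with DOX. Relative to the DOX libraries, *Ptprc* was above and *Csf1r* below all of them, and *Cd14* and *Itgam* overlapped. The part of these markers in the differences was not tested.

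The difference between the effect of IL-17A with DOX and without it, on the log2 scale, was -0.12 for *Il1a* (standard error 0.73), -0.14 for *Zc3h12a* (0.54), 0.10 for *C3* (0.36), 0.45 for *Nfkbiz* (0.58) and 0.58 for *Ptgs2* (0.65). It was 1.95 for *Lcn2* (1.12) and 3.14 for *Saa3* (1.04). That of *Saa3* depends on the setting. Its effect without DOX, from 9 control reads, was 0.70 by limma, 1.41 with a pseudocount of 0.1, 1.87 with voom, 2.22 with DESeq2 and 2.58 with edgeR. The effect with DOX lay between 3.77 and 4.25 over the same kind of alternatives. By limma without IL-17A 2, which held 49 of the 54 reads of its group, the effect without DOX was -0.069. Why the settings differ was not tested. These differences contain the contrast used for the choice and were not tested for the members. Over all genes, 0 of 12319 had an adjusted p under 0.05 for this difference by limma. An unadjusted p under 0.05 was found for 556 of them, no more than that threshold gives by chance. Of the 56 other IL-17 pathway genes tested, 1 had such an unadjusted p.

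Other genes of the pathway were taken from a list of 68, of which 58 were present in the table and 56 were tested. The whole list was written with earlier results of these data known, so that its counts and medians are not independent support. With IL-17A alone, 0 of 56 were called by limma, voom or edgeR, and 2 of 55 by DESeq2 (*Cebpd*, and *Cxcl5*, chosen after its values were seen), against 0.00812% of all genes called higher by limma, 0% by voom or edgeR and 0.0894% by DESeq2. At an unadjusted p under 0.05, 7 of 56 were higher, against 1.88% of all genes. With DOX, 13 were called higher and 1 lower (*Il1b*, chosen after its values were seen), against 9.15% and 6.18% of all genes. With DOX+IL-17A against DOX, 0 of 56 were called by limma, voom or edgeR and 1 of 55 by DESeq2 (*Cxcl5*), against 0.114%, 0.122%, 0.0568% and 0.179% of all genes called higher by limma, voom, edgeR and DESeq2. At an unadjusted p under 0.05, 14 of 56 were higher in that comparison, against 2.19% of all genes. The median log2 fold change of the list was 0.22 with IL-17A, 0.46 with DOX and 0.17 with DOX+IL-17A against DOX, beside 0.02, 0.09 and -0.03 over all genes tested. For the 7 members in the fit the medians were 1.53, 0.80 and 1.98. Nothing is read from the 1.98, since members were picked on DOX+IL-17A against DOX and the choice fixes part of it.

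For IL-17A against control and DOX+IL-17A against DOX, which share no library, the 13 cytokines and chemokines of that list had medians of 0.93 and 1.09, the 9 antimicrobial, barrier and matrix genes 0.38 and 0.80, the 12 transcription and RNA regulators 0.17 and 0.29, and the 22 receptor chains, adaptors and kinases -0.03 and -0.06. Differences between these subgroups were not tested. *Il17ra*, the signaling chain shared by several IL-17 receptors, had a mean level of 45.2 ± 16.1 (SD, n = 3) in control, 48.3 ± 7.64 (n = 4) with DOX, 44.5 ± 12.6 (n = 3) with DOX+IL-17A and 33.3 ± 10.1 (n = 3) with IL-17A. *Il17rc*, its partner for IL-17A, had means of 10.8, 11.9, 12.1 and 10.7. Both chains were present in every library, and their groups overlapped.

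The 6 pathway genes with the largest called changes with DOX included the neutrophil-attracting chemokines *Cxcl1*, *Cxcl2* and *Cxcl3*. *Ccl20*, which attracts cells bearing CCR6, rose by 3.63 on the log2 scale (adjusted p = 0.00305), *Cxcl1* by 2.66 (adjusted p = 0.0166), *Cxcl2* by 2.51 (adjusted p = 0.00377), *Il6* by 2.51 (adjusted p = 0.000356), *Cebpd* by 2.49 (adjusted p = 0.00569) and *Cxcl3* by 2.40 (adjusted p = 0.0494), all by limma. Each was higher in 4 of 4 DOX libraries than in any control. The call of *Cxcl3* was lost when any 1 of 10 libraries was omitted: control 1, 3 or 5, DOX 1, 2 or 3, DOX+IL-17A 2 or 3, or IL-17A 2 or 3, with adjusted p-values from 0.0512 without DOX 3 to 0.114 without control 5. Without DOX 2, where its level was 48.3 against at most 2.66 in the other DOX libraries, its log2 fold change was 1.43. The *Cxcl3* call was also lost with voom (0.233), with all listed genes (0.0502) and with genes of at least 10 reads on average (0.0501). Only the 2 groups in the fit (0.0832) and the replicate block (0.0605) ended it too, and DESeq2 gave no adjusted p. Over all alternatives other than omitting a library, the adjusted p of *Cxcl3* lay between 0.0210 and 0.233. The call of *Cxcl1* was lost without control 5 (0.0571) or DOX 2 (0.0515), and that of *Ccl20* with voom (0.0989; 2.78e-05 to 0.0989 over the alternatives). *Il6* had 0 reads in all control and IL-17A libraries, and its mean with DOX was at least 14.2-fold above the floor of the control group, so that its fitted fold change depends on the pseudocount. *Cebpd*, a C/EBP transcription factor, was at 4.40, 2.31 and 2.24 in control 1, 3 and 5, at 37.7, 12.3 and 6.15 in IL-17A 2, 3 and 5, and at 134, 80.1 and 49.1 in DOX+IL-17A 2, 3 and 5. All IL-17A libraries were above all controls. DOX 2 (43.9), IL-17A 2 and DOX+IL-17A 2 were the highest of their groups, as for *Lcn2* and *Il1a*. For *Nfkbiz*, by contrast, IL-17A 2 was the lowest of its group. The control group holds no library with the replicate number 2, and the part of the replicate number in these levels was not tested.

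**Figure D5:**
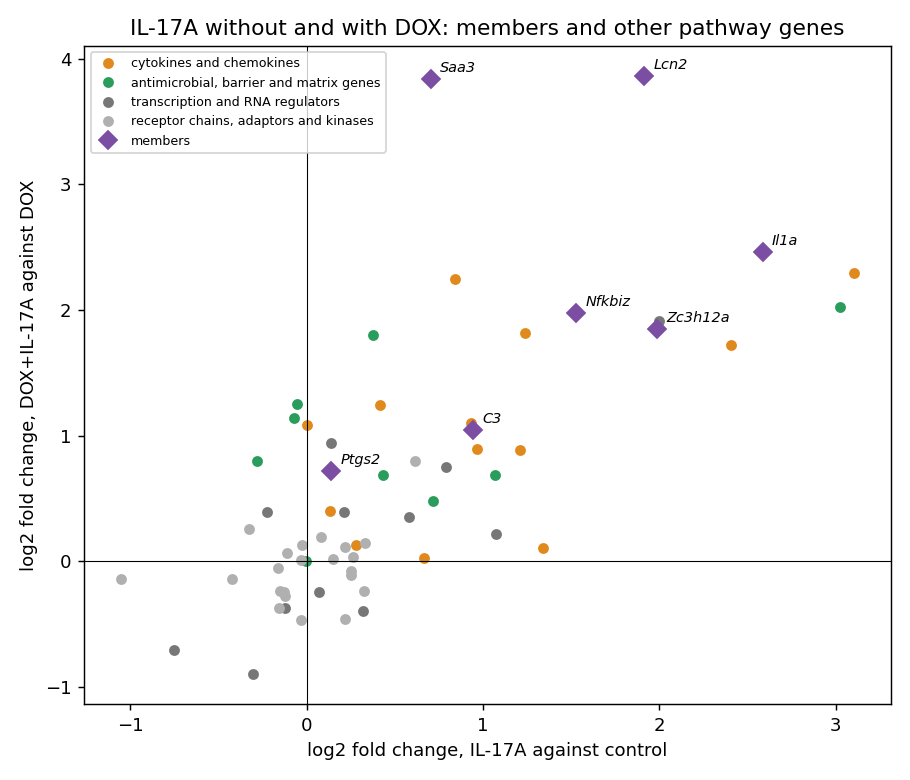
Log2 fold change with IL-17A in the absence of DOX (x axis) and in its presence (y axis), 2 comparisons without a common library, for the 7 members (diamonds) and 56 other pathway genes (points). *Lcn2* and *Saa3* lie highest, and the receptor chains, adaptors and kinases surround 0.

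Relatives of the members were listed as well, also with earlier results of these data known, 15 of 23 being present and tested. With DOX, 5 were called higher and 3 lower, against 9.15% and 6.18% of all genes. *Cfb*, complement factor B, which acts with *C3* in the alternative pathway, rose by 3.32 on the log2 scale (adjusted p = 4.51e-05), from levels of 0.707 to 2.54 in control to 18.3 to 28.1 with DOX. The classical pathway proteases *C1s1* and *C1ra* rose by 2.11 (adjusted p = 0.0453) and 1.48 (adjusted p = 0.0168). *Ptges*, the prostaglandin E synthase that acts after *Ptgs2*, fell by 1.81 on the log2 scale (adjusted p = 0.0131). The call of *C1s1* was lost when any 1 of 8 libraries was omitted: control 3 (0.0556) or 5 (0.172), DOX 1 (0.118) or 2 (0.116), DOX+IL-17A 2 (0.0519), 3 (0.0589) or 5 (0.0535), or IL-17A 3 (0.0579). It was also lost with voom (0.0850), edgeR (0.0645), DESeq2 (0.0689) and a pseudocount of 0.1 (0.105), its adjusted p over all alternatives other than omitting a library lying between 0.0308 and 0.105. The call of *C1ra* was lost without control 1 (0.0550) and with the replicate block (0.0694), and that of *Ptges* without control 5 (0.0577). Except where another tool is named, these are limma values with Benjamini-Hochberg adjustment over all genes tested.

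Genes with a pattern most like that of the members were ranked among 11485 genes outside all lists, by Pearson's r over the 13 libraries with the mean of the standardised member values. They were *Ehf* (r = 0.891), *Snora23* (0.861), *Polr3g* (0.851), *Slc11a2* (0.841) and *Tfrc* (0.839). The points share the 4 groups, so that r describes mostly the order of the groups. *Ehf*, an epithelial ETS family transcription factor, was the 1 gene called with IL-17A alone, at 7.44, 3.41 and 3.07 in control 1, 3 and 5 and 30.3, 20.9 and 21.3 in IL-17A 2, 3 and 5. Its log2 fold change was 2.22 (limma adjusted p = 0.0492), higher in 3 of 3 IL-17A libraries. This call of *Ehf* was lost when any library other than control 1 was omitted, with adjusted p-values from 0.0674 without DOX 4 to 0.267 without control 3, and over the other alternatives its adjusted p lay between 4.55e-07 (DESeq2) and 0.993. Other tests (voom, edgeR), library-size scaling, all listed genes, a pseudocount of 0.1, only the 2 groups in the fit and the replicate block ended the call. DESeq2 and genes of at least 10 reads on average kept it. *Slc11a2* and *Tfrc* encode the iron transporter DMT1 and the transferrin receptor. *Snora23* had few reads and lies within *Ipo7*, so that reads of the 2 genes may not be separable. Among the members themselves, r with the same mean, which contains them, ranged from 0.757 for *Ptgs2* to 0.959 for *Il1a*.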

How the data were processed

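The authors sequenced 3' mRNA libraries (QuantSeq) of the 13 samples, mapped them to mm10 with STAR 2.6 and counted genes with featureCounts (Rsubread 1.30.5); the submitters' notes also name FastQC and Trimmomatic. The deposited signal is CPM of a TMM-scaled library size. Dividing by the level of 1 read gave whole numbers (100% within 0.1), taken as reads; 3 reads correspond to levels of 0.183 to 0.613. A repeated *Ifit1* entry was dropped. Members and gene lists were chosen with earlier results of these data known. Genes kept by edgeR's filterByExpr (12319) were tested with limma 3.58.1 (trend, condition only) on log2(value + 1), with Benjamini-Hochberg adjustment; the method was tested on simulated data. Alternatives were voom, edgeR 4.0.16 and DESeq2 1.42.0 on recovered reads, and other scaling, filters, pseudocount and libraries. Named besides the members were called genes (at most 6 pathway genes and 4 relatives per comparison, by size of change), *Il17ra*, *Il17rc* and the 5 genes of most like pattern.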

Additional observations from a re-analysis of the deposited data

Results flagged for a closer look

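In the DOX group, the only one with 4 libraries, 25 named genes were checked for a library far from the others. The measure was its gap to the nearest library divided by the range of the group. *Steap4*, at 0 in each DOX library, has no range and gave no value. In 3 of them this share was above Dixon's 95% critical value; chance gives about 1 in 20 groups. *Ptgs2* was at 121 in DOX 2, with a share of 0.897, and *Cxcl3* at 48.3 in the same library, with a share of 0.987. *Polr3g* was at 37.8 in DOX 1, with a share of 0.836.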

How the results depend on the processing

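With IL-17A against control, limma called 1 gene; voom, edgeR, library-size scaling, all listed genes, a pseudocount of 0.1, only the groups compared and the replicate block each gave 0, DESeq2 gave 13, and omitting each library gave 0 to 2. Members called there went from 0 to 2 with DESeq2, as did other pathway genes. With DOX against control, 2 members were called; voom, only the groups compared, and DOX 1 and control 1 left out together (chosen after seeing the data) gave 1, edgeR, DESeq2 and a pseudocount of 0.1 gave 3, and omitting each library 0 to 3. With DOX+IL-17A against DOX, 54 genes were called, against 35 with edgeR, 93 with DESeq2, 23 with a pseudocount of 0.1, 87 with only the groups compared, 14 with the replicate block, 85 without DOX 1 and control 1, and 1 to 88 omitting each library. Other pathway genes called there went from 0 to 1 with DESeq2, 4 with only the groups compared, 1 with the replicate block, 2 without DOX 1 and control 1, and 0 to 2 omitting each library.

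The log2 fold change of *Ptgs2* with IL-17A was -0.082 with the replicate block and -0.076 to 0.54 omitting each library, that of *Saa3* -0.069 to 1.17, and that of *Nfkbiz* with DOX -0.22 to 0.50. The value for *Lcn2* with DOX lay between -1.56 and -0.31 omitting each library and between -1.35 and -0.14 over the other alternatives. Of 550 tested values of single genes under alternatives, 468 kept direction and side of the threshold, 8 reversed, 65 lost the call and 9 gained it; the 154 untested values of members with DOX+IL-17A against DOX kept their direction. The cause was not tested. Whether replicate numbers pair libraries is not known, and they were not used as pairs. Deviations from group means correlated above 0.1 in 8 of 13 pairs with the same number (mean 0.15, lowest -0.18) and in 13 of 50 other pairs (mean -0.04). All 3 same-number pairs of DOX+IL-17A with IL-17A were above 0.1 (0.168, 0.203 and 0.355), and not every library correlated best with its own number. With the replicate block and DOX against control, *Il1a* (adjusted p = 0.102), *Cxcl3* (0.0605) and *C1ra* (0.0694) were not called and *Saa3* was (0.0331), so that the 2 members called were *C3* and *Saa3*; *Ehf* was not called with IL-17A (0.120). Depth limits *Saa3*, with 9 reads in all controls, and *Steap4*.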
